A study of Mus musculus with 3 samples.

Results

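The Hox gene clusters were described here by the 2 kb windows that overlap their 39 protein-coding genes, whose symbols are Hoxa, Hoxb, Hoxc or Hoxd followed by a number. These genes lie in 4 clusters and were covered by 172 of the 1186323 windows that the authors kept as valid. A further 200 windows, in the 50 kb on each side of each cluster, served as context. All samples were germinal vesicle (GV) oocytes, the fully grown oocytes of the ovary that still hold an intact nucleus, taken from wildtype C57BL6/Babr mice at 25 days of age. There were 3 replicate pools of about 280 oocytes each and no other genotype, treatment or stage, so every comparison below is between sets of windows within the same libraries. Replicate 2 was made with less antibody than replicates 1 and 3.

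Hox genes encode homeodomain transcription factors that give the embryo positional identity along the head-to-tail axis. Low-numbered genes at one end of a cluster act towards the head, and high-numbered genes at the other end act towards the tail and in the limbs. Outside the tissues that use them, the clusters are classic targets of Polycomb proteins, whose complex PRC2 deposits H3K27me3, and their CpG-rich start sites often carry the H3K4me3 mark of promoters as well, a state called bivalent. H3K36me3 is a mark of transcribed gene bodies, deposited by SETD2 along with elongating RNA polymerase. In oocytes it also accompanies de novo DNA methylation.

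The clusters are unusually rich in CpG, and 4 promoters are printed to show the range and the exceptions among them. They were taken from RefSeq (GRCm38.p6), which gave 24 promoters for 22 of the 39 genes. Each runs from 250 bases before the transcription start to 50 bases after it, 5′ to 3′ on the strand of the gene, with every CG dinucleotide in capitals. Hoxa13 (chr6:52260831-52261130, minus strand) had the most CpG of the Hox promoters, and Hoxd4 (chr2:74721728-74722027, plus strand) was among the 3 with the fewest. Hoxb1 (chr11:96365508-96365807, plus strand) and Hoxd4 were the exceptions that lay in a window called for H3K4me3 without H3K27me3. Hoxc4 (chr15:103034145-103034444, plus strand) belongs to the gene with the highest H3K36me3 level.
Hoxa13: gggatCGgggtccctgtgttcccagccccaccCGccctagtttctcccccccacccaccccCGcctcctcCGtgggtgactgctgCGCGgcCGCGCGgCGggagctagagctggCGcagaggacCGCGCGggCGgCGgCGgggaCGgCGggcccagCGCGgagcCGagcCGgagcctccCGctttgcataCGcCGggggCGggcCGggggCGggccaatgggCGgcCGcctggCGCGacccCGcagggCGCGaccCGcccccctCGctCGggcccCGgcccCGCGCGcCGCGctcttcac
Hoxb1: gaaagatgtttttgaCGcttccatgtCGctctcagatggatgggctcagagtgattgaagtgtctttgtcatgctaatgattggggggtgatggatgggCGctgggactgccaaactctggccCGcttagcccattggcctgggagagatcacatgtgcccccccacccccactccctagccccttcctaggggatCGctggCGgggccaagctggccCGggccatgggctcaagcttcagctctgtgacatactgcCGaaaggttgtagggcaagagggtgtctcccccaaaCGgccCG
Hoxc4: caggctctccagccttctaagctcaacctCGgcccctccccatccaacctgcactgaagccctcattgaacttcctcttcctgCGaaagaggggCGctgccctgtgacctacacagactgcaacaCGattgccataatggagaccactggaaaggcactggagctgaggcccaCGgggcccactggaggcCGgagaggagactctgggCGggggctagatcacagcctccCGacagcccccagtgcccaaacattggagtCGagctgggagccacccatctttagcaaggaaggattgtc
Hoxd4: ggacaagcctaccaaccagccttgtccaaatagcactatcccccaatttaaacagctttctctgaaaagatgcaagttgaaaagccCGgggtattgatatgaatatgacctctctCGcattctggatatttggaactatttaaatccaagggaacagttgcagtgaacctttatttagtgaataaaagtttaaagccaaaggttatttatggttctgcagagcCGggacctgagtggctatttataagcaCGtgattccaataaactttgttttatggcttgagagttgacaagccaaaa

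The promoter of Hoxa13 held 45 CG dinucleotides, more than 98.1% of all 32851 RefSeq promoters of the same length. Those of Hoxb1, Hoxc4 and Hoxd4 held 10, 9 and 4. CG reads the same on both strands, and 94.6% of all promoters held at least 1. The median was 14.5 over the 24 Hox promoters and 7 over all promoters. Of the 24, 22 (91.7%) lay in a window with both H3K4me3 and H3K27me3, compared with 25.4% of the 31295 promoters that have a valid window. None lay in a window called for H3K36me3, against 26.8% of those 31295 promoters.

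The clusters also hold miRNA genes, some of which target messages of Hox genes, and 6 were matched in RefSeq. The 5p arms are printed with the seed, bases 2 to 8, in capitals.
mmu-miR-10a-5p: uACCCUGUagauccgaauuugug
mmu-miR-10b-5p: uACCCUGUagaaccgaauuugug
mmu-miR-196a-5p: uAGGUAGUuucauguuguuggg
mmu-miR-196b-5p: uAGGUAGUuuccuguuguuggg
mmu-miR-615-5p: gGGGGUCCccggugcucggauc

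Mir10a lies in the Hoxb cluster and Mir10b in the Hoxd cluster, and their 5p arms share a seed and differ by U12A, counted from 1 at the 5′ end. The miR-196 arms share another seed and differ by A12C. Mir196b lies in the Hoxa cluster, Mir196a-1 in the Hoxb cluster and Mir196a-2 in the Hoxc cluster, the last 2 with the same 5p arm. Mir615 lies in the Hoxc cluster. All 6 genes were in windows called for both H3K4me3 and H3K27me3, against 9.46% of all valid windows. H3K36me3 in the windows of these genes was between 0.310 RPKM at Mir10a and 0.742 RPKM at Mir196a-2. All were below the threshold of 1, and 31.8% of all valid windows are called for H3K36me3.

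The deposited level is an RPKM value per window and replicate, and a window was called for H3K36me3 by the authors where the mean over replicates was above 1, which held without exception over all windows. The values sum to 1071187, 1067245 and 1071596 in replicates 1 to 3, close to what reads per 1000000 in a window would give, so it is not settled whether they, and the threshold of 1, were also divided by the 2 kb of a window. Ratios do not depend on it. Every value was a whole multiple of the value of 1 read. The reads recovered in this way, summed over windows, were 7888140, 2692510 and 3166564 for replicates 1 to 3. The 172 Hox windows held 489, 157 and 168 of them. A read that crosses a window border may be in the counts of more than 1 window, which was not checked. A Hox window held a median of 4 reads over all 3 replicates, and 100 of the 172 had no read in replicate 2, so the level of a single window or short gene is imprecise, and the sums over many windows are the firmer values. The label of the cells was checked with marker genes. All 10 oocyte genes examined, among them Zp3 and Gdf9, were above 1 RPKM, with none called for H3K27me3 in any window. Of all protein-coding genes, 52.5% are above 1 RPKM and 43.9% have at least 1 window with H3K27me3. Of the genes of other ovarian cells, 3 of 8 granulosa cell genes (Amh, Hsd17b1 and Nr5a2) and 1 of 4 genes of blood and stroma (Pecam1) were above 1, and any part of such cells in the Hox values was not tested.

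As a whole, the Hox genes were low in H3K36me3 and almost entirely covered by H3K27me3. The H3K36me3 level over the 172 windows was 0.386, 0.362 and 0.331 RPKM in replicates 1 to 3, a mean of 0.359 ± 0.028 (SD, n = 3). H3K27me3 was called in 162 windows (94.2%), where 30.0% of all valid windows have the call. H3K4me3 was called in 142 (82.6%, against 28.3%) and both marks together in 133 (77.3%, against 9.46%). H3K36me3 was called in 6 (3.49%, against 31.8%). Of the 172 windows, 3 carried H3K36me3 and H3K27me3 together, where 2.57% of all valid windows carry both. Among windows with H3K27me3, 1.85% of those of Hox genes and 8.59% of the others were called for H3K36me3. No Hox window was without a mark, while 315168 of the 1186323 valid windows were. The H3K4me3 and H3K27me3 calls come from earlier libraries of the same laboratory, with a single call per window, so they carry no replicate error.

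**Figure D1:**
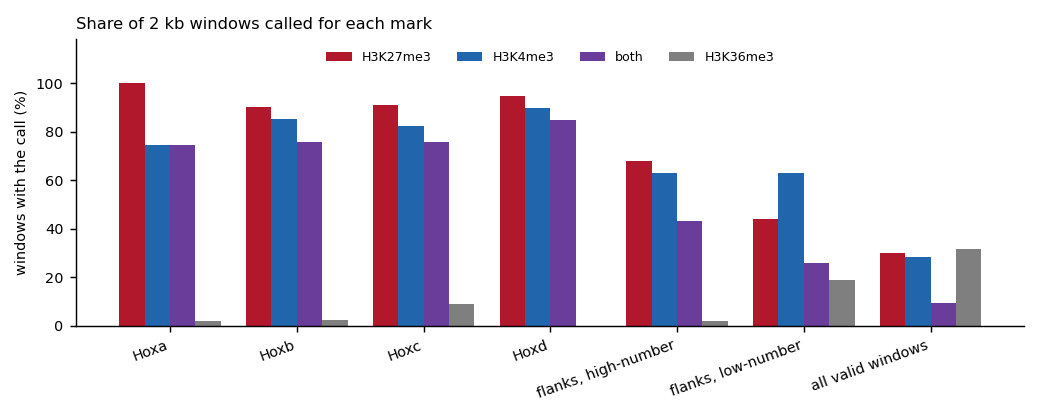
Share of 2 kb windows (%) called for H3K27me3, H3K4me3, both of these, or H3K36me3, in the gene windows of each Hox cluster, in the flanks of the 4 clusters by side, and in all valid windows. H3K27me3 covered 100% of the Hoxa windows and at least 90.2% in the other clusters, and H3K36me3 was called in 0 to 8.89% of the windows of a cluster.

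The level was then compared with other parts of the genome within each replicate. All other valid windows had 0.902 ± 0.002 RPKM, 2.51-fold more than the Hox windows (log2 ratio of Hox to other -1.33 ± 0.11, SD, n = 3). Windows of other protein-coding genes had 1.31 ± 0.03 RPKM, 3.65-fold more (log2 ratio -1.87 ± 0.14). The difference from the flanks was smaller, with 0.495 ± 0.069 RPKM there (log2 ratio -0.45 ± 0.09, 1.37-fold). Because H3K27me3 windows are generally low in H3K36me3, the 162 Hox windows with H3K27me3 were also compared with the 355410 other windows with that call. They were lower again, at 0.339 ± 0.033 against 0.470 ± 0.054 RPKM (log2 ratio -0.47 ± 0.08, 1.38-fold). In each of these 4 comparisons the Hox windows were lower in 3 of 3 replicates, and the replicates did not overlap. The two-sided exact sign-flip permutation test gave p = 0.25 for each (adjusted p = 0.25 over the 4), the smallest value that 3 replicates allow, and it measures only the spread between these pools.

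Windows without any call for a mark are the low end of this dataset, and the Hox windows were close to them. The 315168 unmarked windows had 0.323 ± 0.054 RPKM. They are by definition not above the H3K36me3 threshold in these same libraries, whereas the Hox windows include the 6 called ones. The Hox windows were 1.12-fold higher (log2 ratio 0.16 ± 0.14), with log2 ratios of 0.01, 0.27 and 0.22 in replicates 1 to 3. Among windows with both H3K4me3 and H3K27me3, those of Hox genes had 0.335 ± 0.038 RPKM and the 112062 others 0.424 ± 0.084 (log2 ratio -0.33 ± 0.20, lower in 3 of 3 replicates). For both ratios the exact permutation test gave p = 0.25 (adjusted p = 0.268 over the 15 ratios that were added after the values had been seen).

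**Figure D2:**
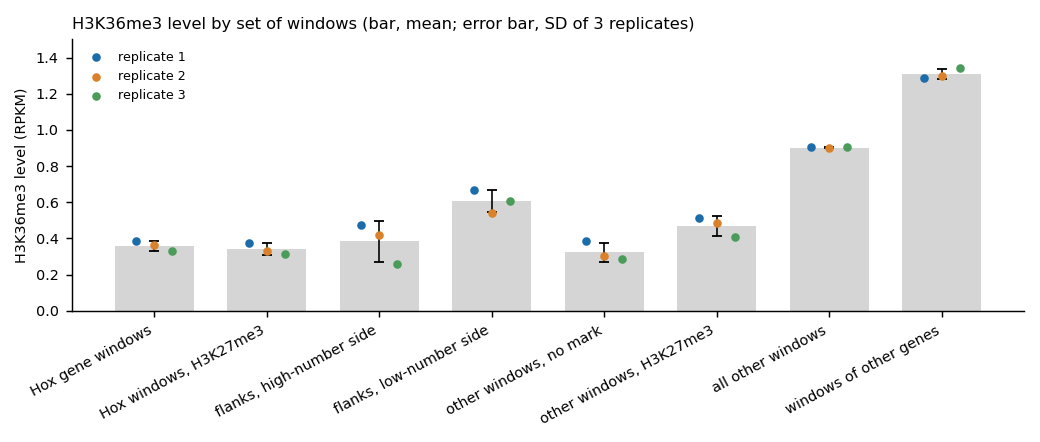
H3K36me3 level (RPKM) by set of 2 kb windows. Bars are the mean of 3 replicates, error bars the SD and points the replicates. The Hox gene windows lay at 0.359 RPKM, near the unmarked windows at 0.323 and below the windows of other protein-coding genes at 1.31.

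The mean H3K36me3 levels of the 4 clusters ran from 0.270 to 0.444 RPKM. Hoxc had 0.444 ± 0.034 RPKM, Hoxb 0.408 ± 0.045, Hoxa 0.311 ± 0.067 and Hoxd 0.270 ± 0.120. The Hoxd values were 0.407, 0.193 and 0.208 in replicates 1 to 3, so its position in that order rested on replicates 2 and 3. Of the 6 pairs of clusters, Hoxa was below Hoxb (log2 ratio -0.41 ± 0.28) and below Hoxc (-0.53 ± 0.41) in 3 of 3 replicates, and Hoxc was above Hoxd in 3 of 3 (0.80 ± 0.52). The other 3 pairs changed sign between replicates. With 3 replicates the exact permutation test cannot go below p = 0.25 before adjustment, so it could not separate any pair (adjusted p between 0.5 and 0.75 over the 6 pairs).

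By gene, 0 of the 39 had a mean level above 1 RPKM, where 52.5% of 21063 protein-coding genes do. Gene means ran from 0.113 to 0.853 RPKM with a median of 0.315, and the median over all protein-coding genes was 1.11. In 16 genes each replicate was below 0.5 RPKM, and in 3 genes (Hoxb1, Hoxb7 and Hoxc4) replicate 2 alone was above 1. H3K27me3 was called in every window of 31 genes (11.3% of all protein-coding genes) and in at least 1 window of 38 (43.9%). Both H3K4me3 and H3K27me3 were called in every window of 21 genes (3.55%). All 39 genes had at least 1 window with H3K4me3, a count that was not made for all protein-coding genes. Only Hoxa7, Hoxb1 and Hoxc4 had a window called for H3K36me3 (70.3% of all protein-coding genes have one). A gene had between 2 and 26 windows and between 3 and 133 reads. In 13 genes some windows also overlapped another Hox gene, so their values are not independent.

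**Figure D3:**
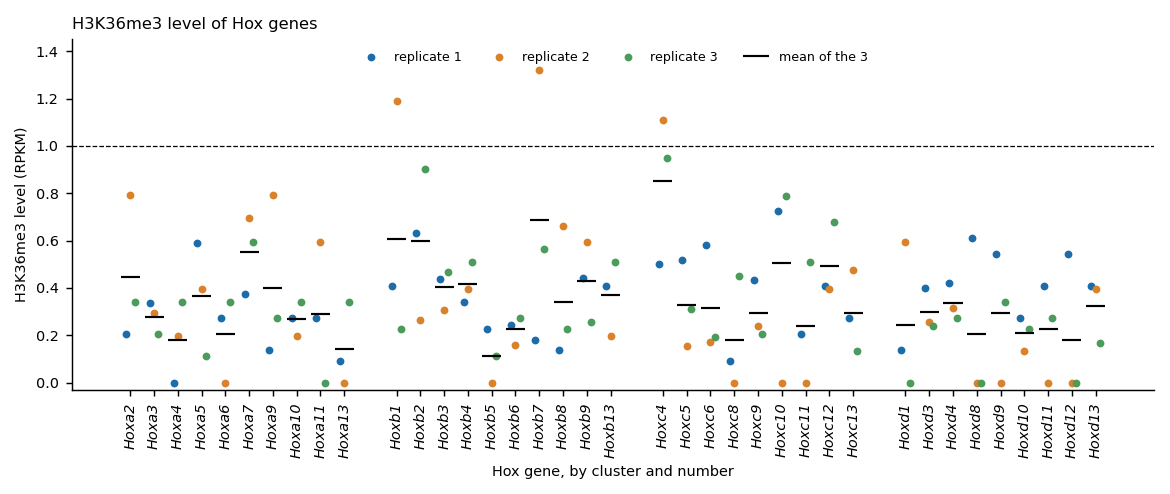
H3K36me3 level (RPKM) of the Hox genes reported singly, by cluster and number, with 3 replicates as points and their mean as a bar. The dashed line is the threshold of 1 RPKM, above which lie 3 replicate values, all of replicate 2, and no gene mean.

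The Hoxa cluster (chromosome 6, 11 genes, all on the minus strand) was the most completely covered by H3K27me3, in 47 of 47 gene windows. H3K4me3 lay in 35 of these. An unbroken run of H3K27me3 windows 148 kb long enclosed all 11 genes and reached beyond both ends, while the median run genome-wide was 4 kb and 0.110% of the 81555 runs were longer. Hoxa7, a central member that takes part in the patterning of the thoracic vertebrae, had the highest mean level of the cluster, with 0.373, 0.694 and 0.592 RPKM in replicates 1 to 3 (0.553 ± 0.164). Most of that came from its most 3′ window, described below, since its other 3 windows were between 0.091 and 0.203 RPKM. Hoxa13, which is needed for the digits and the genital tract, had the lowest, with 0.091, 0 and 0.338 RPKM (0.143 ± 0.175). It had 5 reads in 3 windows, and a count of 0 in replicate 2 allows up to 0.396 RPKM. Other Hoxa genes lay between 0.179 RPKM for Hoxa4 and 0.445 RPKM for Hoxa2, and the replicates of Hoxa7 overlapped with those of, among others, Hoxa2, Hoxa5, Hoxa9 and Hoxa11.

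The Hoxb cluster (chr11:96194316-96368256, 10 genes, all on the plus strand) is longer than the others because Hoxb13 stands apart from the rest. H3K27me3 lay in 37 and H3K4me3 in 35 of its 41 gene windows. Hoxb7, a central member, had the highest mean at 0.689 ± 0.580 RPKM, but its replicates were 0.181, 1.32 and 0.564, so that the SD nearly equalled the mean. Hoxb5 had the lowest level of all 39 genes, with 0.226, 0 and 0.113 RPKM (0.113 ± 0.113) and 6 reads in 3 windows. Hoxb13, known for its role in the prostate, had 0.371 ± 0.158 RPKM, within the range of the cluster, and both of its windows were bivalent.

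Hoxb1, which specifies a segment of the hindbrain, was the only Hox gene without any H3K27me3 window. All 3 of its windows were called for H3K4me3. Its replicates were 0.407, 1.19 and 0.226 RPKM (0.607 ± 0.512), and the high value of replicate 2 came from 1 window. The run of H3K27me3 that covered Hoxb4 to Hoxb9 was 98 kb long and, with gaps of a single window without H3K27me3 bridged, reached Hoxb2 but not Hoxb1. Hoxb2, next to Hoxb1 and also a hindbrain gene, had H3K27me3 and H3K4me3 in each of its 3 windows and 0.60 ± 0.32 RPKM.

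The Hoxc cluster (chr15:102921103-103036852, 9 genes, all on the plus strand) held 4 of the 6 H3K36me3-called gene windows, all in Hoxc4. H3K27me3 lay in 41 and H3K4me3 in 37 of its 45 gene windows. Hoxc4, the lowest-numbered gene here, had the highest level of all Hox genes, with 0.502, 1.11 and 0.948 RPKM in replicates 1 to 3 (0.853 ± 0.314, 93 reads in 10 windows). H3K27me3 was called in 7 of its 10 windows. These windows follow the GENCODE gene, which starts at chr15:103018934, whereas the RefSeq start of the printed promoter lies at chr15:103034395. All 4 called windows lie upstream of that RefSeq start. The window of the RefSeq start had 0.045 RPKM and the next 0.468, neither called for H3K36me3, so the rank of Hoxc4 depends on the GENCODE start. Hoxc8, which patterns the trunk, was the lowest, with 0.091, 0 and 0.451 RPKM (0.181 ± 0.239). The values of these 2 genes did not overlap, and those of Hoxc4 overlapped with Hoxc5, Hoxc6, Hoxc10, Hoxc11 and Hoxc12, whose highest replicates lay between 0.508 and 0.790 RPKM. As annotated, Hoxc5 spans 26 windows, 18 of which it shares with other Hox genes.

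The Hoxd cluster (chr2:74668310-74765142, 9 genes, all on the plus strand) had no gene window called for H3K36me3. H3K27me3 lay in 37 and H3K4me3 in 35 of its 39 gene windows. Hoxd4 was the highest with 0.421, 0.317 and 0.271 RPKM (0.336 ± 0.077), and Hoxd12, a limb gene, the lowest with 0.543, 0 and 0 RPKM (0.181 ± 0.314). With 8 reads in 2 windows, a count of 0 allows up to 0.595 RPKM for Hoxd12 in replicate 2 and 0.508 in replicate 3, so these 2 genes did not differ beyond their spread. Hoxd13, a digit gene, had H3K27me3 in 1 of 2 windows and 0.324 ± 0.134 RPKM.

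**Figure D4:**
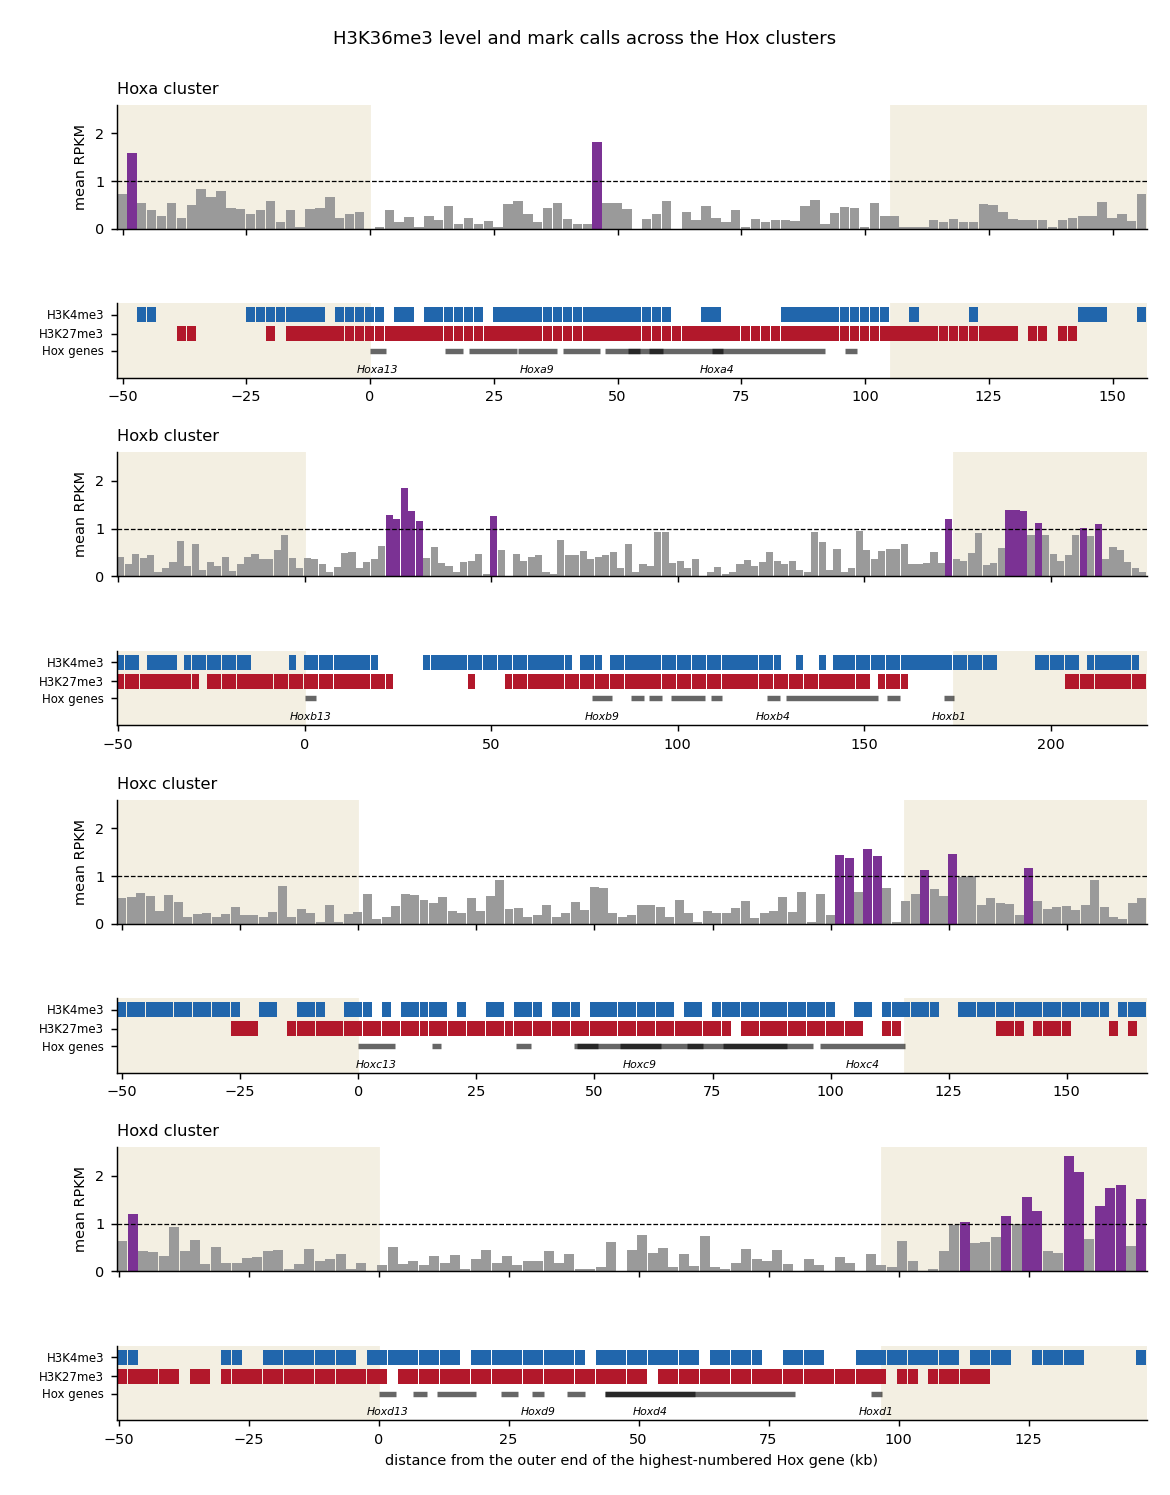
Each Hox cluster with 50 kb on both sides (shaded). Bars are the mean H3K36me3 level of a 2 kb window (RPKM, 3 replicates), purple where called, with the threshold of 1 RPKM dashed, and the strips below show windows called for H3K4me3 (blue) and H3K27me3 (red) and Hox genes reported singly (grey), against distance from the outer end of the highest-numbered gene (kb). Called windows lay in Hoxa7, Hoxb1 and Hoxc4, in the space between Hoxb13 and Hoxb9, and in the flanks, mostly on the low-number side.

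The 6 gene windows called for H3K36me3 rested on few reads. The Hoxa7 window (chr6:52214001-52216000, with 1510 bases of exon, also overlapping the antisense gene Hoxaas3) had 0.679, 2.77 and 2.03 RPKM in replicates 1 to 3 and was called for all 3 marks. The Hoxb1 window (chr11:96366001-96368000, 1817 bases of exon and 183 of intron) had 0.407, 3.17 and 0 RPKM. The 4 windows of Hoxc4 all lay in intron of the GENCODE gene, upstream of the RefSeq start. The first pair (chr15:103022001-103024000 and chr15:103024001-103026000) was called for H3K27me3 as well. Replicate 1 had 0.679 RPKM in both, while replicates 2 and 3 had 1.59 and 2.03 in the former and 2.77 and 0.677 in the latter. In the second pair (chr15:103028001-103030000 and chr15:103030001-103032000), which was not called for H3K27me3, replicate 1 again had 0.679 RPKM, and replicates 2 and 3 had 1.98 and 2.03, then 1.19 and 2.37. In replicate 1, the most deeply sequenced, each of the 6 was thus below 1, and 0 of the 172 Hox windows exceeded 1 in all 3 replicates. Of the 1186323 valid windows, 234063 did. A value above 1 takes 8 reads in replicate 1 and 3 reads in replicates 2 and 3. Without replicate 1, the mean was above 1 in 12 Hox windows, and without replicate 2 or replicate 3 in 7. These counts were not made over all valid windows.

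Only 10 Hox windows were not called for H3K27me3. They were the 3 of Hoxb1, 3 of Hoxc4, and 1 each in Hoxb3, in Hoxd13, in the overlap of Hoxc5 and Hoxc6 and in that of Hoxd3 and Hoxd4. Their H3K36me3 level was 0.686 ± 0.169 RPKM, against 0.339 ± 0.033 in the 162 windows with H3K27me3, 1.99-fold higher and higher in 3 of 3 replicates (exact permutation test p = 0.25, adjusted p = 0.268 over the 15 added ratios). Of the 10, the 3 called for H3K36me3 had 1.19 to 1.56 RPKM and the other 7 had 0.268 to 0.513.

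H3K4me3 was more frequent at the gene starts and in CpG-rich windows. The GENCODE starts of the 39 genes lay in 37 windows, of which 36 (97.3%) were called for H3K4me3, compared with 106 of the 135 other Hox windows (78.5%). Of all RefSeq promoters with a valid window, 25.4% lay in a window with H3K4me3 and H3K27me3. The GENCODE starts of other genes were not counted. Both H3K4me3 and H3K27me3 were called at the start of 37 of the 39 Hox genes. The exceptions were Hoxb1, with H3K4me3 alone, and Hoxb3, with H3K27me3 alone. For Hoxd4 the GENCODE start (chr2:74711929) differs from the RefSeq start (chr2:74721978) of the promoter printed above. The window of that RefSeq start had H3K4me3 alone. Start windows held a median of 89 CpG and the other Hox windows 42, while the median over all valid windows was 14. Across Hox windows, those with both marks held a median of 60 CpG and those with H3K27me3 without H3K4me3 held 17. H3K36me3 was 0.324 ± 0.050 RPKM in the start windows and 0.369 ± 0.027 in the others.

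Windows with both marks were joined into long runs at the clusters. When every gap of a single window without both marks was bridged, the Hoxd run of 96 kb, which bridged 6 such gaps, was the longest of 40810 in the genome, and it extended from Evx2 to Hoxd4. The Hoxa run of 82 kb, with 5 gaps bridged, was the third, and the Hoxb and Hoxc runs of 74 kb, with 2 and 6 gaps bridged, were level at rank 4, so that the Hox clusters held 4 of the 7 longest runs. The median run was 4 kb. H3K36me3 over the 4 runs was between 0.263 ± 0.121 RPKM in Hoxd and 0.339 ± 0.120 RPKM in Hoxc. With no gap bridged the runs were shorter and their ranks among 53654 runs were 3 for Hoxb (46 kb), 16 for Hoxa (36 kb), 235 for Hoxd (22 kb) and 348 for Hoxc (20 kb).

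By position within the clusters, the high-numbered genes 9 to 13 had 0.303 ± 0.047 RPKM over 53 windows, none called for H3K36me3, and 52 of these windows had H3K27me3. The central genes 4 to 8 had 0.404 ± 0.012 RPKM over 75 windows, 5 of them called for H3K36me3. The low-numbered genes 1 to 3 had 0.343 ± 0.056 RPKM over 69 windows, 1 of them called. Without the windows that 2 groups share, genes 9 to 13 were 1.4-fold lower than genes 4 to 8, in 3 of 3 replicates (log2 ratio -0.49 ± 0.15), and genes 1 to 3 were 1.23-fold lower, also in 3 of 3 (-0.29 ± 0.24). The exact permutation test gave p = 0.25 for both (adjusted p = 0.268). Hoxc4 carried much of the level of genes 4 to 8, with 4 of their 5 called windows. With its windows left out, genes 9 to 13 were 1.13-fold lower than the rest of genes 4 to 8, still in 3 of 3 replicates (log2 ratio -0.17 ± 0.08), while genes 1 to 3 were lower in 2 of 3 and had a log2 ratio of the opposite sign (0.05 ± 0.25). Of the paralog groups, whose members share a number and descend from a common gene, group 4 had the widest range, from Hoxa4 at 0.179 RPKM to Hoxc4 at 0.853 RPKM, and the genes of group 11 ran from 0.226 to 0.289 RPKM.

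The space between Hoxb13 and Hoxb9 held the other called windows of the clusters. It is 74.0 kb long (chr11:96197448-96271456) and 36 of its windows overlap no Hox gene. H3K27me3 was called in 22 of these (61.1%), H3K4me3 in 29 (80.6%) and H3K36me3 in 6 (16.7%). Over all valid windows these shares are 30.0%, 28.3% and 31.8%. The mean H3K36me3 level was 0.510 ± 0.032 RPKM, 1.26-fold that of the Hoxb gene windows and higher in 3 of 3 replicates (log2 ratio 0.33 ± 0.24, exact permutation test p = 0.25, adjusted p = 0.268). The called windows included 5 in a row (chr11:96216001-96226000), which overlap no annotated gene and lie 18.6 kb from Hoxb13. They had 1.68, 1.35 and 1.08 RPKM in replicates 1 to 3 (1.37 ± 0.30), and 1 of the 5 was also called for H3K27me3. Of these, 2 were above 1 in every replicate, which no gene window was. In the spaces between the Hoxa, Hoxc and Hoxd genes, with 7, 14 and 10 windows, all windows had H3K27me3. In the other Hoxb spaces 7 of 11 windows had it. None of these windows was called for H3K36me3.

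The edges of the clusters were compared by side. On the high-number side the flanks had 0.384 ± 0.113 RPKM and H3K27me3 in 68 of 100 windows. On the low-number side they had 0.606 ± 0.061 RPKM, H3K27me3 in 44 of 100 windows, and 19 of the 21 H3K36me3-called flank windows. H3K36me3 was thus called in 19% of the low-number and 2% of the high-number flank windows, against 31.8% of all valid windows. H3K27me3 is called in 30.0% of all valid windows. The low-number side was 1.63-fold higher, by a log2 ratio of 0.49, 0.37 and 1.24 in replicates 1 to 3 (0.70 ± 0.47, exact permutation test p = 0.25, adjusted p = 0.268). The side difference was not shared by all clusters, because in Hoxa it ran the other way, with 0.489 ± 0.187 RPKM on the high-number side and 0.241 ± 0.051 on the low-number side.

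Hoxd had the largest ratio of a flank to the gene windows of its cluster. Its low-number flank had 0.931 ± 0.191 RPKM (1.01, 0.713 and 1.07), 3.61-fold more than its gene windows in the mean and more in 3 of 3 replicates (log2 ratio 1.85 ± 0.53). In that flank 10 of 25 windows (40%, against 31.8% of all valid windows) were called for H3K36me3. H3K27me3 was called in 8 (32%, against 30.0%). The level of the flank was near the 0.902 RPKM of all valid windows. The highest window (chr2:74800001-74802000) had 2.44, 0.396 and 4.40 RPKM, and its neighbour on the outer side had 1.9, 1.98 and 2.37, above 1 in every replicate. No annotated gene overlaps these windows. By distance, the level of the Hoxd flank was 0.197 RPKM in the first 10 kb beyond Hoxd1, where 60% of windows had H3K27me3, 0.730 RPKM from 10 to 20 kb, where all had it, and 1.14 RPKM from 20 to 30 kb, where none had it.

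In Hoxb the low-number flank was 1.65-fold above the gene windows (0.677 ± 0.122 RPKM, log2 ratio 0.72 ± 0.42). It had 6 called windows (24%, against 31.8% of all valid windows), the nearest 13.7 kb beyond Hoxb1. In Hoxc the low-number flank was 1.28-fold above the gene windows (0.574 ± 0.099 RPKM, log2 ratio 0.36 ± 0.35). It had 3 called windows (12%), the nearest 3.15 kb beyond Hoxc4. H3K27me3 was called in no window of the first 10 kb beyond Hoxb1 or Hoxc4. In Hoxa the low-number flank was below the genes in 3 of 3 replicates (0.777-fold, log2 ratio -0.36 ± 0.37), it had no called window, and H3K27me3 continued through the first 20 kb. For the low-number flanks of Hoxa, Hoxb, Hoxc and Hoxd the exact permutation test gave p = 0.25 (adjusted p = 0.268 over the 15 added ratios).

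On the high-number side H3K27me3 was called in all windows of the first 10 kb beyond each of the 4 clusters, in 85% from 10 to 20 kb and in 50% from 40 to 50 kb. H3K36me3 was 0.284 ± 0.043 RPKM in the first of these bins and 0.545 ± 0.243 in the last. Against the gene windows of their own cluster, the high-number flanks of Hoxa (1.51-fold, log2 ratio 0.59 ± 0.33) and Hoxd (log2 ratio 0.48 ± 0.15) were higher and that of Hoxc (0.659-fold, log2 ratio -0.60 ± 0.69) lower in 3 of 3 replicates (exact permutation test p = 0.25, adjusted p = 0.268). That of Hoxb was higher in 1 of 3 (0.879-fold, p = 0.75 in the same exact test). Beyond Hoxc13 the first called window, at 51.1 kb (chr15:102868001-102870000), had 3.33 RPKM, and the level from 60 to 70 kb was 3.19 RPKM.

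**Figure D5:**
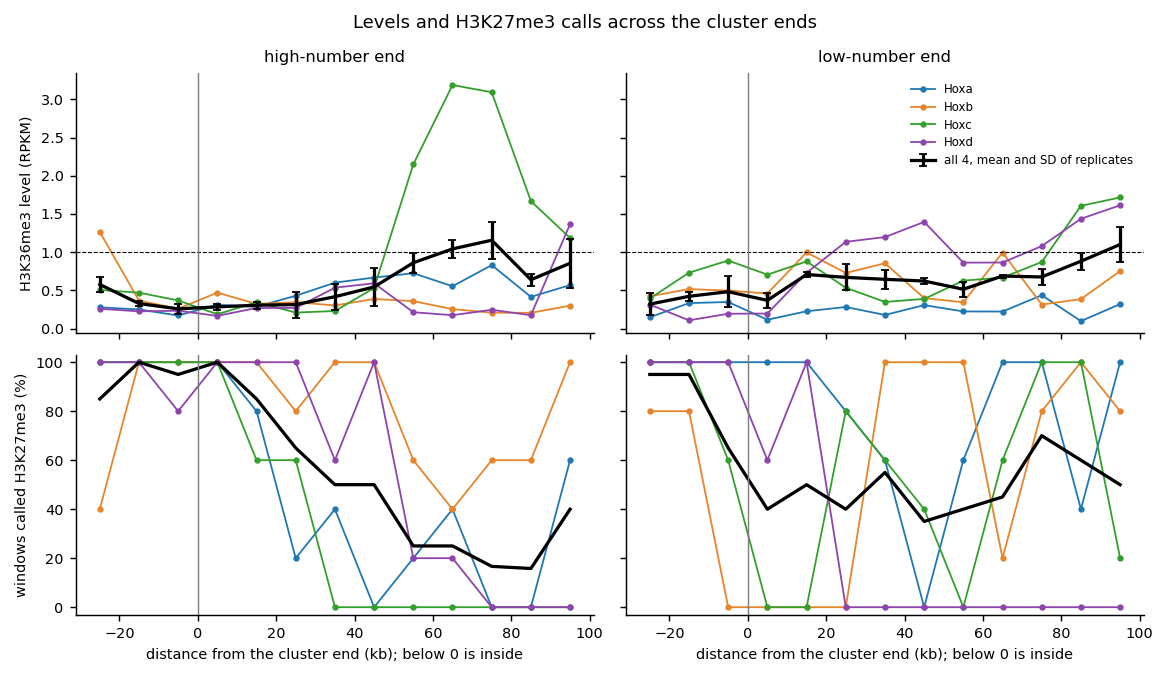
H3K36me3 level (RPKM, top) and share of windows called for H3K27me3 (%, bottom) in 10 kb bins across the high-number end (left) and the low-number end (right) of the clusters, with negative distances inside the cluster. Coloured lines are single clusters and the black line all 4, with the SD of 3 replicates for the level. On the high-number side H3K27me3 fell from 100% in the first 10 kb to 50% at 40 to 50 kb, and on the low-number side it was already at 40% in the first 10 kb.

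Evx2, a homeobox gene that borders Hoxd13 at 8.75 kb, had 0.275 ± 0.090 RPKM, and all 4 of its windows were bivalent. Ttll6, which encodes a tubulin-modifying enzyme 28.9 kb from Hoxb13, had 0.351 ± 0.125 RPKM with H3K27me3 in 14 of 17 windows. These are the only protein-coding genes besides Hox that overlap the flanks. The 7 nearest protein-coding genes further out were chosen after the annotation had been looked at. Of these, 6 were above 1 RPKM, where 52.5% of all protein-coding genes are. On the Hoxc sides these were Calcoco1 at 2.18 ± 0.90 RPKM and Smug1 at 1.81 ± 0.24. Skap2 beyond the Hoxa cluster had 2.04 ± 0.05 RPKM, Skap1 beyond Hoxb1 had 2.01 ± 0.08, Lnpk beyond Evx2 had 1.83 ± 0.25 and Mtx2 beyond Hoxd1 had 1.36 ± 0.29. Of these 4 genes, H3K27me3 was called in 1 window in all, in Skap1. Evx1, 52.6 kb beyond Hoxa13, was at 0.723 ± 0.035 RPKM with H3K27me3 in 1 of 4 windows.

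The noncoding genes of the clusters shared the state of the Hox genes around them. GENCODE lists 18 long noncoding genes that overlap the clusters, and 0 of them were above 1 RPKM (34.1% of 9091 long noncoding genes are). Their levels ran from 0 to 0.597 RPKM, the highest being Hoxb3os, and 17 had H3K27me3 in every window (22.0% of all long noncoding genes). Hotair, a noncoding RNA of the Hoxc cluster known for its link to PRC2, had 0.611, 0.595 and 0 RPKM (0.402 ± 0.348) with H3K27me3 in both windows. Hottip, beyond Hoxa13, had 0.296 ± 0.336 RPKM with H3K4me3 and H3K27me3 in all 3 windows. Halr1 in the low-number flank of Hoxa had no H3K27me3 window and 0.368 ± 0.280 RPKM. Reads cannot be assigned to a strand here, so values of antisense genes such as Hoxb3os are those of the windows they share with Hox genes.

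Other genes of the pathway were less uniform. The TALE homeodomain proteins of the Pbx, Meis and Pknox families bind DNA together with HOX proteins, and 3 of the 9 genes examined were above 1 RPKM, where 52.5% of all protein-coding genes are. Pknox1 was the highest at 1.96 ± 0.15 RPKM without any H3K27me3 window, and Meis1 the lowest at 0.254 ± 0.081 RPKM with H3K27me3 in 63 of 71 windows. Of 13 homeobox genes related to the Hox genes, from the ParaHox genes to Evx and En, 1 was above 1 RPKM (against the same 52.5%) and 11 had H3K27me3 in at least 1 window (43.9% of all protein-coding genes). That gene was Pdx1, a pancreas regulator, at 2.63 ± 0.59 RPKM with no H3K27me3 window and all 4 windows called for H3K36me3. Mnx1, a motor neuron gene, was the lowest at 0.186 ± 0.163 RPKM. The medians of these lists were 0.49 and 0.50 RPKM, compared with 0.315 RPKM for the 39 Hox genes and 1.11 RPKM for all protein-coding genes.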

How the data were processed

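Chromatin of 3 pools of GV oocytes, a single group, was cut with micrococcal nuclease and immunoprecipitated for H3K36me3 by a native ChIP-seq protocol for few cells. The authors trimmed the reads with TrimGalore, mapped them to GRCm38 with Bowtie2 2.2.9 and counted them in SeqMonk over 2 kb windows, leaving out windows with extreme values in input. Whether duplicates were removed is not given in the sources used here, and reads may include PCR copies, so intervals and floors cover counting error only. The deposited values are named RPKM by the authors, are not divided by input, and sum to about what reads per 1000000 would give, so a division by window length is not evident. The deposited category table names the marks called per window, and windows it does not list were taken as unmarked.

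Windows were assigned to genes of GENCODE M21 by any overlap, with Python 3.11.15, numpy 2.4.6, pandas 2.3.3 and scipy 1.17.1. A value was taken as a whole number of reads within 0.01, and 100% of values were. Floors are 3 reads. The level of a set was the mean RPKM of its windows per replicate. Sets were compared by the log2 ratio within each replicate, without a pseudocount, with an exact permutation test (two-sided, flipping the signs of the replicates) and Benjamini-Hochberg adjustment. The ratio was tested on simulated data. Calls are given as shares of windows without a test, since neighbouring windows are not independent. CpG counts came from the GRCm38.p6 sequence, and all windows lay inside its chromosomes. Named genes were, per cluster, those with the highest and lowest mean level, those with an H3K36me3-called window, those with no H3K27me3 window, the neighbours in the flanks, the noncoding and miRNA genes of the clusters and the highest and lowest of each list. Others named in the text were chosen after their values were seen. The members and lists were chosen with earlier results of these data known. Values of 1 member gene by itself are not reported here, although its windows are in the sums and counts.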

Additional observations from a re-analysis of the deposited data

How the results depend on the processing

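No paired analysis was possible because there is a single group of samples and hence no second group to pair them with. The comparisons are between sets of windows within each replicate. The 4 comparisons of Hox windows with other windows kept their direction in all 41 alternative settings tried. The settings that left out 1 replicate could not change it, because each ratio was negative in all 3 replicates. Leaving out each replicate gave log2 ratios of -1.38 to -1.27 against all other windows, -1.93 to -1.79 against windows of other genes, -0.49 to -0.40 against the flanks and -0.50 to -0.42 between H3K27me3 windows. Against flanks of 20 kb the log2 ratio was -0.26 and against flanks of 100 kb it was -0.90. Averaging log2(RPKM + 1) over windows, which shrinks differences between low values, gave the smallest sizes, -0.36, -0.63, -0.12 and -0.10 in the same order. Restricting the other windows to the range of GC content that holds the middle of the Hox windows (41.7% to 59.3%) gave -1.53, -1.96 and, between H3K27me3 windows, -0.58.

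H3K27me3 was called in 88.8% of windows when the whole spans were taken, the spaces between genes included. The median window had 0.302 RPKM in the Hox genes and 0.497 RPKM over all valid windows. For all valid windows, the shares at other thresholds or without 1 replicate were not computed. The share of Hox windows above the H3K36me3 threshold was 23.3% at 0.5 RPKM, 1.16% at 1.5 and 0% at 2 or when each replicate had to exceed 1. It ran from 4.07% to 6.98% when 1 replicate was left out, the highest without replicate 1 (12 windows). While the median over all protein-coding genes was 1.11 RPKM, the count of Hox genes above the threshold was 6 at 0.5 RPKM. It was 1 where a window had to have its midpoint in the gene, which leaves Hoxb1 with 1 window at 1.19 RPKM. It ran from 0 to 1 when 1 replicate was left out, and Hoxc4 was above 1, at 1.03 RPKM, without replicate 1. Without replicate 2, the library made with less antibody, no gene was above 1 and 7 windows were. Cluster levels moved by less than their SD in every setting. Leaving out 1 of 3 replicates cannot move a mean by more than that, and leaving out Hoxb13 can change only the Hoxb level. The settings that could show a larger move were therefore the assignment by window midpoint, the whole spans and, for Hoxb, the omission of Hoxb13. A window called in the sparse replicates takes 3 reads, which limits what single windows can show. Leaving Hoxc4 out, an alternative chosen after seeing the data, turned the log2 ratio of genes 1 to 3 over genes 4 to 8 from -0.29 to 0.05 and that of genes 9 to 13 from -0.49 to -0.17.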
